A study of Mus musculus with 6 samples.

Results

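The genes described here encode 3 groups of proteins built around the LIM domain: Fhl1, Fhl2 and Fhl3, Csrp1, Csrp2 and Csrp3, and Pdlim1, Pdlim5 and Pdlim7. The rule names these 9 genes and uses no measured value, though earlier results of these data were known when it was set, and the table used here holds transcripts of 8 of them among 11835 genes. The expression of Csrp3, the striated muscle LIM protein, was not analysed here. The study knocked down Cnn3, the calponin 3 gene, in C2C12 cells, and 3 libraries made with NC siRNA (siNC) are compared here with 3 made with CNN3 siRNA (siCNN3). C2C12 is a mouse myoblast line that fuses into myotubes when serum is lowered. Every culture received an siRNA and, by its label, was moved to horse serum to differentiate, so that the labels set the groups apart by the siRNA. The methods call the sequenced cells differentiating myoblasts. For differentiation experiments in general they describe a repeated transfection and a harvest time, without restating these for the sequenced cells. No source used here says whether the replicates were separate cultures, so p-values measure the spread between these samples, which may be technical.

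In GRCm38 the genes lie apart from each other. Fhl2 spans chr1:43123074-43196984 (minus strand), Fhl1 chrX:56731787-56793346 (plus) and Fhl3 chr4:124700701-124708611 (plus). Csrp1 spans chr1:135720061-135752232 (plus) and Csrp2 chr10:110919789-110939622 (plus), while Pdlim1, Pdlim5 and Pdlim7, all on the minus strand, span chr19:40221173-40271842, chr3:142239590-142395696 and chr13:55495795-55513676.

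The LIM domain is a pair of zinc fingers that binds other proteins rather than DNA, and LIM proteins therefore act as adaptors between the actin cytoskeleton, adhesion sites and the nucleus. FHL proteins consist of little else than LIM domains and move between actin filaments, where they meet integrins and the sarcomere, and the nucleus, where they act as cofactors of transcription factors. CSRP proteins bind alpha-actinin and zyxin and bundle actin, and PDLIM proteins join a PDZ domain, which holds alpha-actinin, to LIM domains that hold kinases. Calponin 3, the product of Cnn3, binds and stabilises the same actin filaments.

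Fhl2 was the only member called, and it stayed called in 5 of 14 alternative fits, among them 1 of the 6 that leave out a library. Its FPKM, a fragment count scaled by transcript length and library size, rose from a mean of 28.3 in siNC to 48.1 in siCNN3, 170.4% of the siNC level. Fhl1 was lower in each siCNN3 library than in any siNC library, at 77.5% of the siNC mean, but did not pass the test, and Csrp1, Csrp2 and Fhl3 overlapped between the groups. Promoter windows of these genes that hold a CArG box, the motif that serum response factor binds, are shown first: Fhl2 because it was called, and an inner start of Fhl1 because the summed FPKM of the transcripts that begin there was lower in each siCNN3 library. A promoter window here runs from 250 bases before to 50 bases after a start site in RefSeq (build GRCm38.p6), is written 5′ to 3′ on the strand of the gene, and has the CArG box in capitals.

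Fhl2, start of transcript Fhl2-201 (chr1:43163912-43164211, minus strand): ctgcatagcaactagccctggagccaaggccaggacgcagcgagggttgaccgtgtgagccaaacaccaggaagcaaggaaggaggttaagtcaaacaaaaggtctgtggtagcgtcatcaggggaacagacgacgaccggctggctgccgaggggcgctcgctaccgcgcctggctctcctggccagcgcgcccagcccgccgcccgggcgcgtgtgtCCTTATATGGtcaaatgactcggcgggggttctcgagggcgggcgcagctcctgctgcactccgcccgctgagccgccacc
Fhl2, upstream start (chr1:43196712-43197011, minus strand): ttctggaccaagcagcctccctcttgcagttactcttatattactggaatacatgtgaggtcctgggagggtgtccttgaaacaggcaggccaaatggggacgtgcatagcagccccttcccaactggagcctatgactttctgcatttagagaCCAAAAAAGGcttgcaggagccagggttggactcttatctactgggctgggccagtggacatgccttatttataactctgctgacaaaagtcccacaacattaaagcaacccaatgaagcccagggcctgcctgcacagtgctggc
Fhl1, inner start (chrX:56779433-56779732, plus strand): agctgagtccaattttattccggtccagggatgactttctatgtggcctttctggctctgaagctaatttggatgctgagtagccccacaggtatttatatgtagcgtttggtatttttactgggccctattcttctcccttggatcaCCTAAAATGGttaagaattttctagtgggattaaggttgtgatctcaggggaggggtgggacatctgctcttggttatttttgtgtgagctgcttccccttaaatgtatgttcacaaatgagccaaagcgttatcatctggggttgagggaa

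With the start site as base 251 of each 300, the CArG box lay at bases 220 to 229 of the Fhl2-201 window, 155 to 164 of the upstream Fhl2 window and 149 to 158 of the Fhl1 window. None of the 3 overlapped another motif searched. RefSeq gave 13 windows for 8 of the 9 genes, among them Csrp3 but not Csrp2 and, for Fhl1, not the upstream start. The 3 shown were the only ones of the 13 with a CArG box on either strand, compared with 1.63% of all 32851 windows. Of the other motifs searched on both strands, the E-box CANNTG was in 9 of the 13 windows (72.3% of all), the GC box GGGCGG in 6 (35.7%), the TATA box TATAAA in 3 (13.6%) and the interferon response core GAAANNGAAA in 1, of Pdlim5 (3.44%). The MCAT motif CATTCC, which TEAD factors bind, and the AP-1 site TGANTCA were in 0 of them (14.7% and 7.81% of all). A match in the letters does not show that a factor binds there.

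For each gene, FPKM of its transcripts were summed and tested as log2(FPKM + 1) with limma beside all 11593 genes whose mean over the 6 libraries was 0.5 FPKM or more, a filter that 8 of 8 members passed. A gene was called at a Benjamini-Hochberg adjusted p below 0.05. Of the 8 members, 1 was called higher and 0 lower, where 1.73% of all tested genes were called higher, 0.336% lower and 2.06% in either direction. At an unadjusted p below 0.05 there were 2 members, Fhl2 and Fhl1, against 16.1% of all tested genes. The values of the groups did not overlap for 3 members (Fhl2 higher, Fhl1 and Pdlim5 lower), compared with 23.1% of all tested genes. Of all calls, 83.7% were higher, which became 68.2% after quantile normalization. The median log2 fold change was -0.09 over the members and 0.028 over all tested genes.

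**Figure D1:**
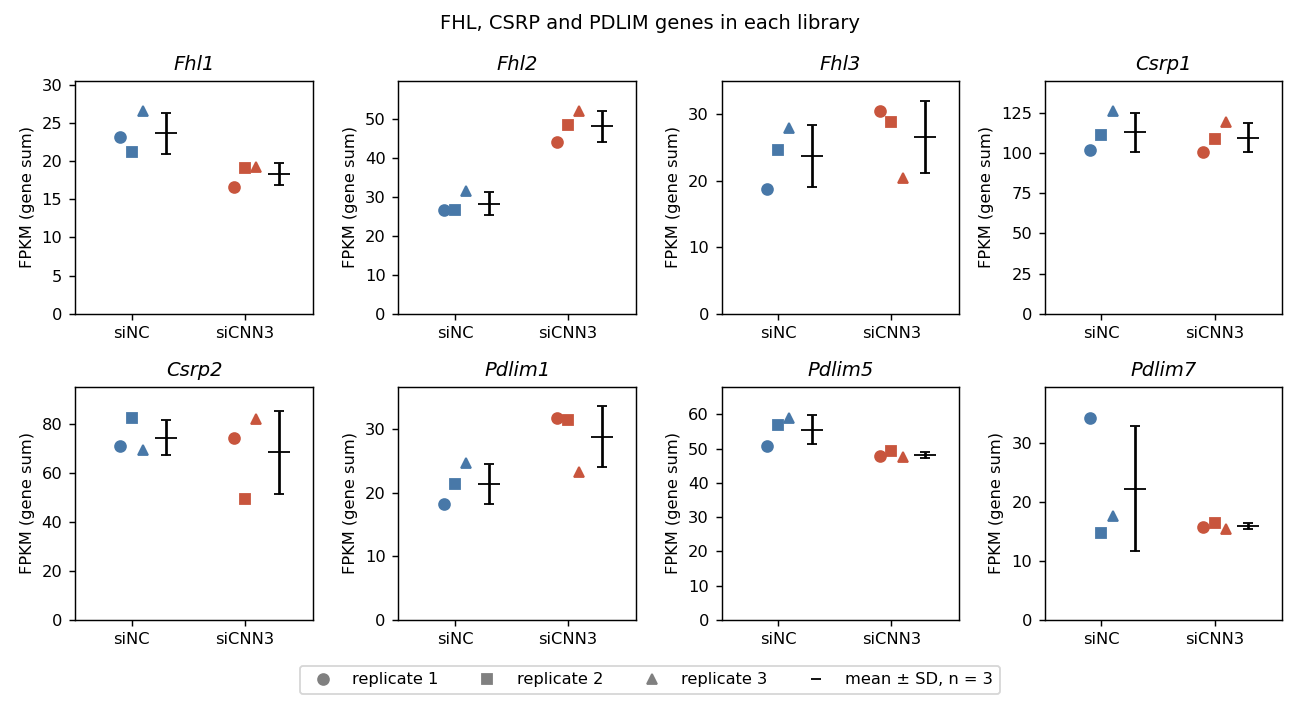
FPKM of each gene (sum of its transcripts, linear axis from 0) in the 3 siNC and 3 siCNN3 libraries, with symbols for the replicate and a bar for the mean ± SD (n = 3). The siCNN3 values of Fhl2 lie between 44.0 and 52.0, above every siNC value, while those of Fhl1 and Pdlim5 lie below and the other genes overlap.

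Some facts of the libraries bear on these values. Cnn3 itself measured 61.4 to 62.8 FPKM in the siNC libraries, and 19.04, 39.2 and 25.6 FPKM in replicates 1, 2 and 3 of siCNN3, and was not called (log2 fold change -1.19, adjusted p = 0.0669, limma). It was called without siCNN3 replicate 2 (adjusted p = 0.0475, limma). The deposited FPKM summed to 322621 in siNC replicate 1 and to between 347064 and 355591 in the others, and that library also listed the most transcripts at 0, 2131 against 978 to 1333. Across genes, log2 values of siCNN3 replicate 3 correlated with siNC replicates 1 and 3 (r = 0.950 and 0.951) about as with siCNN3 replicates 1 and 2 (0.947 and 0.956). Summed over 15 interferon response genes, siNC replicates 1, 2 and 3 had 60.2, 613 and 213.8 FPKM and the siCNN3 replicates 4677, 4438 and 2734 FPKM, and 10 of the 15 were called higher. The labels call the cells myotubes. Of the 19 myotube markers with values, Des was the highest in siNC at 113.0 to 125.1 FPKM, followed by Acta1 at 24.6 to 33.8 and Mylpf at 22.8 to 36.5, with Myog at 1.23 to 3.07 and Ckm lowest at 0.414 to 0.911, while Actc1, Neb and Ttn had no values in the table used. Of the 8 myoblast and cell cycle markers with values, Top2a was the highest in siNC at 79.2 to 142.7 FPKM and Myod1 the lowest at 1.93 to 3.10. Of 18 tested myotube markers 9 were called lower, and the list's sum was 225 to 279.4 FPKM in the siNC libraries and 123.1 to 142.9 FPKM in the siCNN3 libraries. Of the myoblast and cell cycle markers 0 were called (limma), with 1 higher and 0 lower at an unadjusted p below 0.05, and their sum was 219.4 to 340.9 FPKM in the siNC libraries and 252.8 to 307.2 FPKM in the siCNN3 libraries. The 12 smooth muscle and fibroblast markers, among which Des is counted again, all had log2 fold changes below 0. Of these, 0 were called and 6 had an unadjusted p below 0.05 (limma). Their sums were 1506 to 2035 FPKM in the siNC libraries and 1084 to 1187 FPKM in the siCNN3 libraries. Among 6 blood and immune markers in the table, led by globins, 2 were called lower, with sums of 234.7 to 658.5 and 53.98 to 76.17 FPKM, while Ptprc, Csf1r and Cd3e had no values in it. In RNA of whole cultures, fewer cells of a type and less RNA per cell cannot be told apart, and the part of these shifts in the results that follow was not tested.

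Among the FHL genes, Fhl2 encodes a cofactor found in heart and in growing myoblasts that binds beta-catenin, integrins and serum response factor, and whose gene is itself known as a target of serum response factor. Over replicates 1, 2 and 3, Fhl2 measured 26.6, 26.5 and 31.6 FPKM with NC siRNA and 44.0, 48.4 and 52.0 FPKM with CNN3 siRNA; values are given in this replicate order throughout. The lowest siCNN3 value was above the highest siNC value, and the means were 28.3 ± 2.90 and 48.1 ± 4.0 FPKM (SD, n = 3 each). The log2 fold change was 0.75 (standard error 0.126, 95% interval 0.45 to 1.05, adjusted p = 0.0403, limma), and Fhl2 ranked 175 of 11593 genes by p. The direction held in each of the 14 alternative fits, with values between 0.65 and 0.83, but the call held in 5 of them. Of the 6 fits with 1 library left out, the one that omits siCNN3 replicate 3 kept the call (adjusted p = 0.0437, limma). Leaving out siNC replicate 1, 2 or 3 gave adjusted p of 0.101, 0.110 and 0.111, and leaving out siCNN3 replicate 1 or 2 gave 0.1199 and 0.190.

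**Figure D2:**
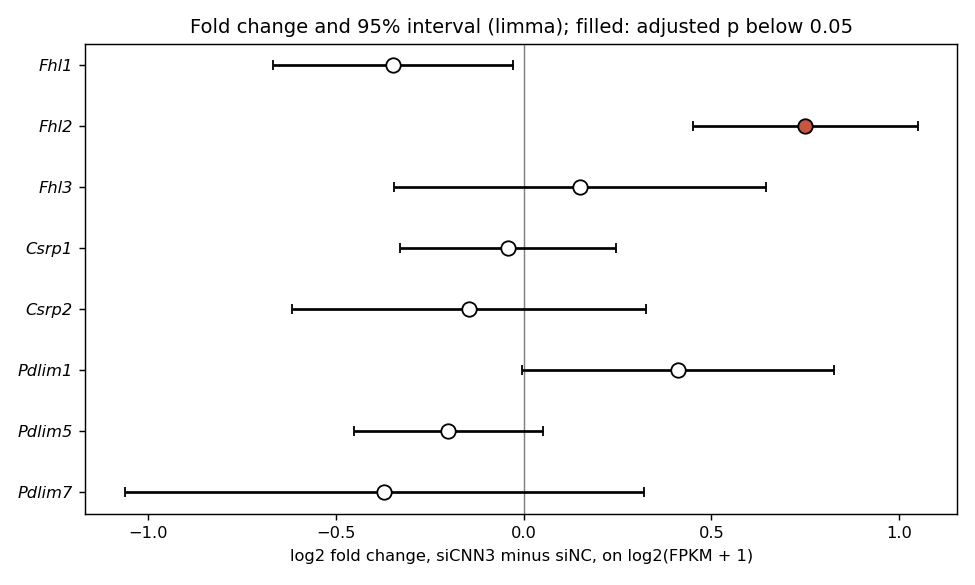
Log2 fold change of each member (siCNN3 minus siNC, on log2(FPKM + 1)) with its 95% interval from limma, filled where the adjusted p is below 0.05. The interval of Fhl2 (0.45 to 1.05) and that of Fhl1 (-0.67 to -0.03) lie on one side of 0, and only Fhl2 is filled.

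Fhl1, the main FHL gene of skeletal muscle, in which mutations cause inherited myopathies, was at 23.2, 21.2 and 26.6 FPKM in the siNC libraries and at 16.7, 19.2 and 19.2 FPKM in the siCNN3 libraries. The highest siCNN3 value was below the lowest siNC value, at means of 23.7 ± 2.69 and 18.4 ± 1.44 FPKM (SD, n = 3). Its log2 fold change was -0.35 (95% interval -0.67 to -0.03, unadjusted p = 0.0365, adjusted p = 0.270, limma), which does not pass the test. Fhl3, whose product can hold back MyoD activity, was at 18.7, 24.7 and 27.96 FPKM in the siNC libraries and at 30.4, 28.8 and 20.4 FPKM in the siCNN3 libraries. The groups overlapped, with siCNN3 replicate 3 beside siNC replicate 1 at the low end (log2 fold change 0.15, 95% interval -0.34 to 0.65, adjusted p = 0.764, limma). Without siNC replicate 1 the log2 fold change of Fhl3 was -0.0046.

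Since FPKM is scaled by length, the 3 FHL genes can be set side by side. Fhl2 made up 38.8%, 36.6% and 36.7% of their summed FPKM in the siNC libraries and 48.3%, 50.2% and 56.8% in siCNN3. Fhl1 made up 33.9%, 29.3% and 30.8% in siNC and 18.3%, 19.9% and 20.95% in siCNN3. Neither share overlapped between the groups, whereas that of Fhl3 did (31.3% ± 3.52 and 28.5% ± 5.69, SD, n = 3). Shares of the same total are tied, since a rise in the FPKM of Fhl2 lowers the shares of the others, so they are not separate results. The summed FPKM of the FHL genes was 68.6, 72.4 and 86.1 in siNC and 91.1, 96.4 and 91.6 in siCNN3. For 11 such shares and sums over the 3 families, the shares of Fhl2, Fhl1 and Pdlim1 and the FHL sum gave a two-sided exact permutation p of 0.1 (0.275 after Benjamini-Hochberg adjustment), the smallest that 3 against 3 libraries allow, so none can pass 0.05.

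**Figure D3:**
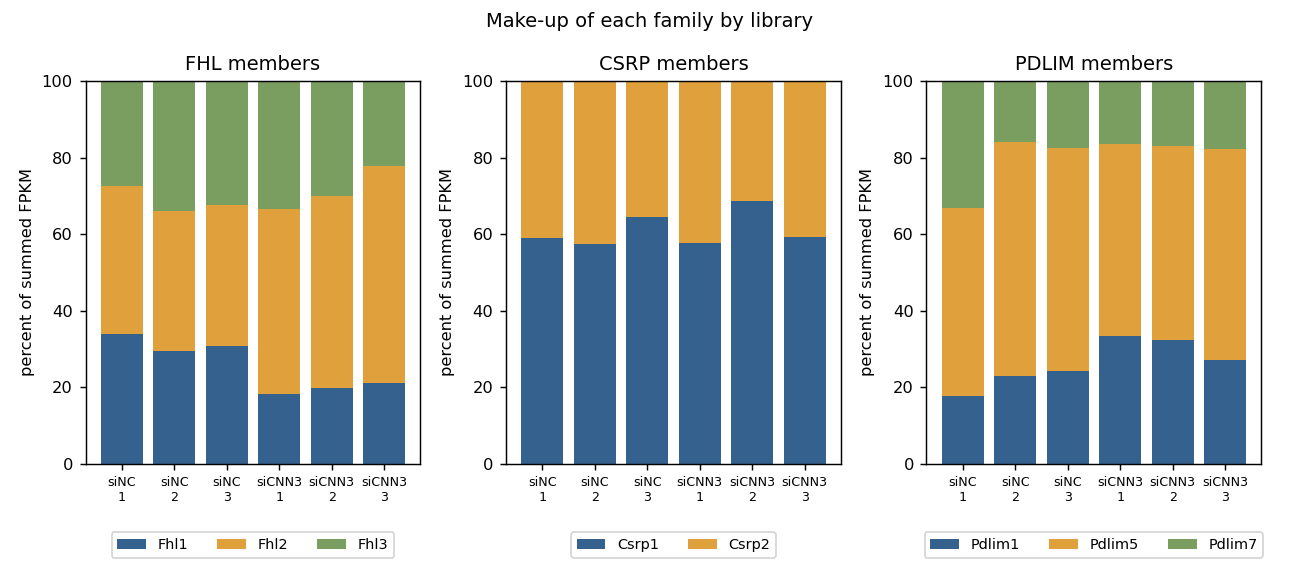
Make-up of each family in each library, as the percent of the family's summed FPKM that each gene holds (stacked bars, axis from 0 to 100). Fhl2 takes 36.6% to 38.8% of the FHL total in siNC and 48.3% to 56.8% in siCNN3, while the CSRP bars show no such step. Pdlim1 takes 17.6% to 24.3% of the PDLIM total in siNC and 27.0% to 33.4% in siCNN3, although its FPKM overlap between the groups. Pdlim7 holds 33.2% of that total in siNC replicate 1.

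Csrp1 and Csrp2 were the most abundant members. Csrp1, found in smooth muscle and many other cells, was at 102.1, 111.2 and 126.1 FPKM in the siNC libraries and at 101.0, 108.9 and 119.5 FPKM in the siCNN3 libraries. The groups covered nearly the same range, with a log2 fold change of -0.04 (95% interval -0.33 to 0.25, adjusted p = 0.901, limma), so a change by more than 0.33 on the log2 scale in either direction lies outside that interval. Csrp2, known as the smooth muscle LIM protein, was at 71.3, 82.8 and 69.6 FPKM in the siNC libraries and at 74.3, 49.6 and 82.1 FPKM in the siCNN3 libraries. Replicate 2 of siCNN3 was the lowest of the 6 and the other siCNN3 libraries lay within or beside the siNC range (log2 fold change -0.14, 95% interval -0.62 to 0.33, adjusted p = 0.763, limma). Without that library the log2 fold change of Csrp2 was 0.071. Csrp1 held between 57.3% and 68.7% of the FPKM of the pair in all 6 libraries.

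Of the PDLIM genes, Pdlim1 encodes CLP36, a stress fibre protein with a single LIM domain. It was at 18.2, 21.3 and 24.6 FPKM in the siNC libraries and at 31.8, 31.4 and 23.3 FPKM in the siCNN3 libraries. Replicates 1 and 2 of siCNN3 were above every siNC library, while siCNN3 replicate 3 fell among them. The log2 fold change was 0.41 (95% interval -0.003 to 0.83, adjusted p = 0.313, limma). Pdlim5 encodes ENH, which brings protein kinase C to the Z-disc. It was at 50.8, 56.8 and 59.1 FPKM in the siNC libraries and at 47.7, 49.2 and 47.6 FPKM in the siCNN3 libraries, and each siCNN3 value was below each siNC value. Its log2 fold change was small, at -0.20 (95% interval -0.45 to 0.05, adjusted p = 0.407, limma). Pdlim7 encodes Enigma, another alpha-actinin and tropomyosin binding adaptor. It was at 34.3, 14.7 and 17.6 FPKM in the siNC libraries and at 15.7, 16.5 and 15.4 FPKM in the siCNN3 libraries, so siNC replicate 1 stood apart from the other 5 libraries. Its log2 fold change of -0.37 (95% interval -1.06 to 0.32, adjusted p = 0.579, limma) became -0.023 without that library.

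Ordered by their siNC means, the members were Csrp1 at 113.1 FPKM, Csrp2 at 74.5, Pdlim5 at 55.6, Fhl2 at 28.3, Fhl3 at 23.8, Fhl1 at 23.7, Pdlim7 at 22.2 and Pdlim1 at 21.4. From Fhl2 down, the siNC ranges of neighbours overlapped. In siCNN3 the order was Csrp1 at 109.8 FPKM, Csrp2 at 68.7, Pdlim5 at 48.2, Fhl2 at 48.1, Pdlim1 at 28.8, Fhl3 at 26.6, Fhl1 at 18.4 and Pdlim7 at 15.9. There Fhl2 (44.0 to 52.0 FPKM) overlapped the range of Pdlim5 (47.6 to 49.2 FPKM), which in siNC had lain apart from it, and Pdlim1 overlapped Fhl3, while the ranges of Fhl1 and Pdlim7 did not overlap.

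The 8 genes have 30 transcripts in the table, of which 27 had a mean of at least 0.5 FPKM. FPKM of transcripts of a gene are estimates that share reads, so their sum is firmer than each. Tested on their own beside 21658 transcripts, 0 of the 27 were called (limma), where 0.54% of all were, and 5 had an unadjusted p below 0.05, against 10.7% of all. The groups did not overlap for 7 of the 27, compared with 17.9% of all transcripts.
Fhl2-201, which starts in the first window shown above, held on average 97.0% of the gene's FPKM in either group. It was at 26.6, 25.5 and 30.01 FPKM in the siNC libraries and at 41.95, 47.7 and 50.5 FPKM in the siCNN3 libraries (log2 fold change 0.75, adjusted p = 0.0904 beside all transcripts and 0.0395 beside gene sums, limma). The annotated start of Fhl2-202 lies within the upstream window, but before its CArG box rather than after it. Like Fhl2-201, this transcript encodes 279 codons. Fhl2-202 was listed at 0, 1.08 and 1.59 FPKM in the siNC libraries and at 2.06, 0.672 and 1.48 FPKM in the siCNN3 libraries. These values overlap, and the 0 can be a failed estimate.
For Pdlim1, the longer transcript Pdlim1-201, with 327 codons, was at 14.03, 13.4 and 18.03 FPKM in the siNC libraries and at 23.7, 26.3 and 23.3 FPKM in the siCNN3 libraries, without overlap (log2 fold change 0.66, unadjusted p = 0.0048, adjusted p = 0.189, limma). The shorter Pdlim1-202, with 198 codons, was at 4.16, 7.90 and 6.57 FPKM in the siNC libraries and at 8.12, 5.11 and 0 FPKM in the siCNN3 libraries, so that in replicate 3 the gene sum is that of Pdlim1-201 alone.

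**Figure D4:**
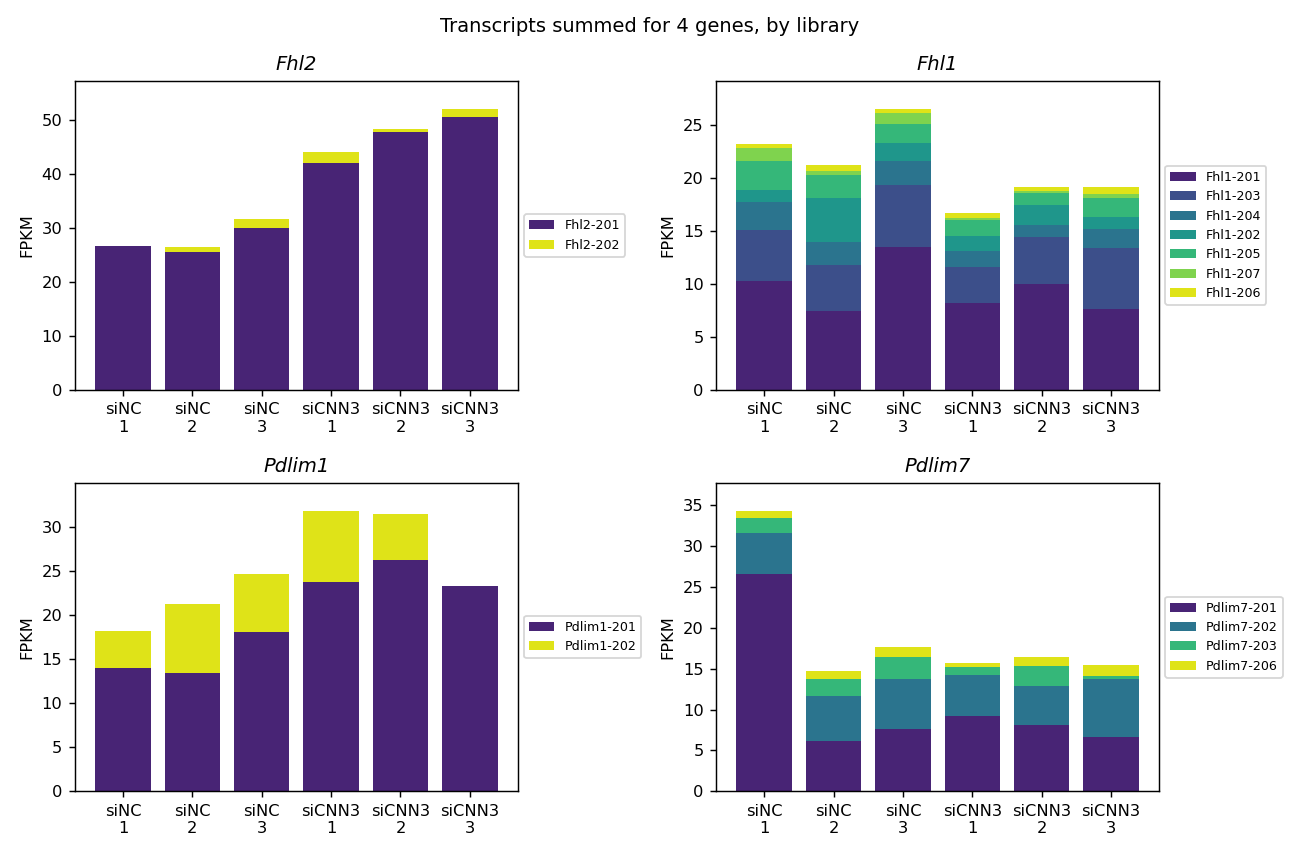
FPKM of each transcript, stacked by library (axis from 0), for Fhl2, Fhl1, Pdlim1 and Pdlim7. Fhl2-201 is nearly the whole of Fhl2 in all 6 libraries, Pdlim1-202 is missing in siCNN3 replicate 3, and Pdlim7-201 reaches 26.5 FPKM in siNC replicate 1 against 6.19 to 9.25 FPKM elsewhere.

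Fhl1 has 7 transcripts in the table, from 3 places on chromosome X (GRCm38). Grouping transcripts by start was decided after their values were seen, and these sums were tested beside gene sums, not beside single transcripts. Transcripts Fhl1-201, Fhl1-203 and Fhl1-206 start between 56731787 and 56732129 and summed to 15.4, 12.3 and 19.8 FPKM in the siNC libraries and 12.1, 14.8 and 14.1 FPKM in the siCNN3 libraries, which overlap (log2 fold change -0.18, adjusted p = 0.689, limma). The inner transcripts Fhl1-202, Fhl1-204 and Fhl1-205 start between 56779437 and 56779730, in the window shown above. Fhl1-205 starts before the CArG box of that window, and Fhl1-202 and Fhl1-204 start after it. The inner transcripts summed to 6.56, 8.50 and 5.79 FPKM in the siNC libraries and 4.41, 4.20 and 4.76 FPKM in the siCNN3 libraries. Each siCNN3 sum was below each siNC sum, at 64.1% of the siNC mean (log2 fold change -0.53, unadjusted p = 0.0167, adjusted p = 0.187, limma). Of these transcripts, Fhl1-204 did not overlap between the groups on its own, while Fhl1-202 and Fhl1-205 did. Fhl1-207, which starts at 56786527, was at 1.21, 0.438 and 1.00 FPKM in the siNC libraries and 0.175, 0.192 and 0.321 FPKM in the siCNN3 libraries (log2 fold change -0.59, adjusted p = 0.221 beside gene sums and 0.421 beside all transcripts, limma). None of the 3 starts passed the test, and whether they differ from each other was not tested. The transcripts encode from 210 to 323 codons, with the 280 codons of Fhl1-201 at the highest level, 10.4 ± 3.01 FPKM in the siNC libraries and 8.63 ± 1.25 FPKM in the siCNN3 libraries (SD, n = 3).

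The high Pdlim7 value of siNC replicate 1 lay in Pdlim7-201, the longest form with 457 codons, at 26.5 FPKM there and at 6.19 to 9.25 FPKM in the other 5 libraries. The short forms Pdlim7-202, Pdlim7-203 and Pdlim7-206, of 188 to 222 codons, ranged from 0.394 to 7.08 FPKM over all libraries and overlapped between the groups. Pdlim5-201, the form with 591 codons, carried nearly all of Pdlim5, at 46.6, 51.6 and 55.4 FPKM in the siNC libraries and 43.8, 45.7 and 43.98 FPKM in the siCNN3 libraries. The rare Pdlim5-209 was at 1.18, 0.999 and 0.812 FPKM in the siNC libraries and 0.302, 0.343 and 0.403 FPKM in the siCNN3 libraries, without overlap (adjusted p = 0.314, limma). Fhl3-202 was likewise rare, at 0.447, 0.878 and 0.0578 FPKM in the siNC libraries and 1.36, 1.29 and 1.43 FPKM in the siCNN3 libraries, all above siNC (adjusted p = 0.374, limma). The 5 Csrp2 and 2 Csrp1 transcripts all overlapped between the groups, with adjusted p between 0.789 and 0.964. Members of one family shared at most 18 identical bases in a row in these transcripts, and the longest run shared by any pair was 34 bases, between Fhl1 and Pdlim5.

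Other LIM-domain genes were taken from a list of 43 written from general knowledge, of which 33 were in the table and tested. By limma 0 of them were called, and 4 had an unadjusted p below 0.05, all lower, against 16.1% of all tested genes in either direction. Their median log2 fold change was -0.15, with 26 below 0 and 7 above, beside a median of 0.028 over all genes, of which 5335 lay below 0 and 6258 above. The 3 with the largest difference were Pdlim3, Limd1 and Crip1. Pdlim3 encodes ALP, the PDLIM protein of the Z-disc, and was at 1.44, 2.05 and 1.64 FPKM in the siNC libraries and at 0, 0.615 and 0.0615 FPKM in the siCNN3 libraries, without overlap (log2 fold change -1.17, adjusted p = 0.059, limma). It passed the threshold after median-of-ratios scaling (adjusted p = 0.0481) and quantile normalization (adjusted p = 0.0388). Limd1, a zyxin relative, was at 9.35 to 12.2 FPKM in the siNC libraries and at 2.25, 2.90 and 10.8 FPKM in the siCNN3 libraries (adjusted p = 0.294). Crip1, a small LIM protein related to the CSRP family, was at 237.9, 261.5 and 276.0 FPKM in the siNC libraries and at 137.4, 139.9 and 212.6 FPKM in the siCNN3 libraries (log2 fold change -0.69, adjusted p = 0.125). In both, siCNN3 replicate 3 lay nearest to siNC, and without it Limd1 and Crip1 were called lower (adjusted p = 0.00676 and 0.00927, limma). That fit called 444 of 11593 genes higher and 161 lower, against 200 and 39 with all libraries. Neither gene was called with any other library left out. The other PDLIM genes Pdlim2 and Pdlim4 were at 61.7 to 103.3 and 32.7 to 41.7 FPKM in the siNC libraries and at 70.3 to 76.9 and 27.5 to 45.8 FPKM in the siCNN3 libraries and overlapped.

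A list of 27 known partners of these proteins had 23 genes in the table, and 0 were called (limma), with 4 lower and 0 higher at an unadjusted p below 0.05. Of all 11593 genes, 712 were lower and 1152 higher at that level, 16.1% in either direction. The median log2 fold change of the partners was -0.20, with 20 below 0 and 3 above, beside a median of 0.028 and 5335 below 0 over all genes. Actn3, the alpha-actinin of fast muscle fibres, was at 19.3, 17.8 and 19.4 FPKM in the siNC libraries and 8.02, 10.3 and 13.8 FPKM in the siCNN3 libraries, without overlap (log2 fold change -0.79, adjusted p = 0.104, limma). Itga7, the laminin-binding integrin of muscle, was at 119.0 to 149.8 FPKM in the siNC libraries and at 70.6, 74.6 and 125.2 FPKM in the siCNN3 libraries (log2 fold change -0.63, adjusted p = 0.244). Without siCNN3 replicate 3 both were called lower, with adjusted p of 0.0245 and 0.0212 (limma). Over all genes that fit called 444 higher and 161 lower, against 200 and 39 with all libraries. Neither Actn3 nor Itga7 was called with any other library left out. Insr, the insulin receptor gene, was low only in siCNN3 replicate 1, at 1.59 FPKM against 5.57 to 6.70 FPKM elsewhere (adjusted p = 0.564). The widely used alpha-actinins Actn1 and Actn4 had log2 fold changes of -0.17 and -0.07, and Srf, the serum response factor gene, was at 7.13 to 12.5 FPKM in the siNC libraries and 9.25 to 11.7 FPKM in the siCNN3 libraries (log2 fold change 0.07, adjusted p = 0.916).

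Of all tested genes, those whose log2 values most resembled Fhl2 over the 6 libraries were Nfx1, Hpse and Ube2w, with Pearson r of 0.999, 0.998 and 0.996. Hpse, which encodes heparanase, was at 6.43, 6.11 and 7.78 FPKM in the siNC libraries and 10.9, 12.8 and 13.7 FPKM in the siCNN3 libraries (log2 fold change 0.79, adjusted p = 0.0586, limma), beside 0.75 for Fhl2. Nfx1 and Ube2w had smaller log2 fold changes, of 0.21 and 0.33 (adjusted p = 0.382 and 0.201). For Csrp1, the member with the highest level, they were Klhl15, Aaed1 and Pitpnm1 (r of 0.991, 0.986 and 0.976). These 6 points share their libraries and were searched over 11593 genes, so the correlations are descriptions.

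**Figure D5:**
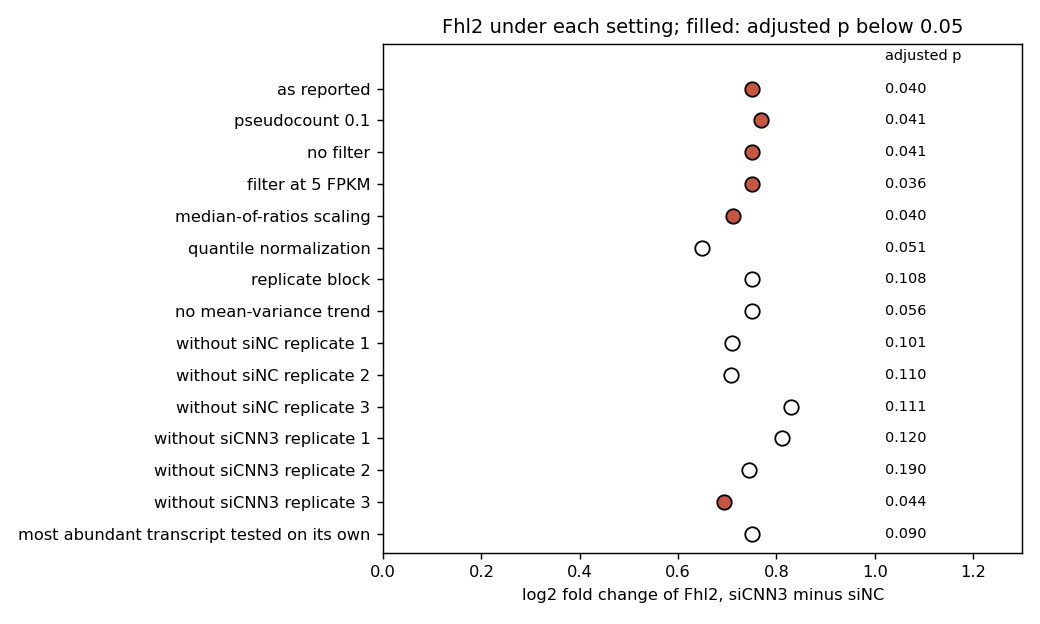
Log2 fold change of Fhl2 (siCNN3 minus siNC) as reported and in 14 alternative fits, with the adjusted p from limma at the right and filled circles where it is below 0.05. All values lie between 0.65 and 0.83, while the adjusted p ranges from 0.0356 to 0.190.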

How the data were processed

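RNA of 6 C2C12 libraries, 3 siNC and 3 siCNN3, was prepared for sequencing with Illumina protocols. The authors deposited FPKM per Ensembl transcript. The submitters' processing notes name Bowtie 0.12.2 and the builds mm8 and mm10 without a role. The program that estimated FPKM, its annotation and the read numbers are not given in the sources used here, so depth, and with it the counting error, is unknown. Of 24023 transcripts, 23949 matched GENCODE M21 (GRCm38, which is mm10) by identifier without its version, and FPKM were summed by gene symbol. Genes averaging 0.5 FPKM or more were fitted as log2(FPKM + 1), which understates changes of low genes, with limma 3.58.1 in R 4.3.3 (mean-variance trend, Benjamini-Hochberg adjustment over all genes, threshold 0.05). The scripts were tested on simulated data. Shares were compared by exact permutation tests. Alternatives were a pseudocount of 0.1, no filter or one at 5 FPKM, 2 scalings, a replicate block, no trend, single transcripts and each library left out. Tables and figures used pandas 2.3.3 and matplotlib 3.10.9.

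Members and lists were chosen with earlier results of these data known. Named were all members, their transcripts, Cnn3, list genes past the threshold or otherwise the 3 with the largest change, and the 3 genes most like 2 members. Marker genes, and Pdlim2, Pdlim4, Actn1, Actn4, Srf and Tjp1, were named after their values were seen.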

Additional observations from a re-analysis of the deposited data

How the results depend on the processing

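The number of member genes called, 1 as reported, was 0 after quantile normalization, with a replicate block, without the mean-variance trend and with each transcript tested on its own, and 0 to 1 with a library left out. Fhl2 then had adjusted p of 0.0507, 0.108, 0.0565 and 0.0904 (limma). Over all genes, 200 were called higher and 39 lower. The counts became 62 and 6 with the replicate block, the lower count became 63 with median-of-ratios scaling and 93 with quantile normalization, and leaving out a library gave 16 to 444 higher and 4 to 161 lower. Other LIM-domain genes called, 0 as reported, were 1 after either scaling (Pdlim3) and 0 to 2 with a library left out. Partner genes called, also 0, were 1 after quantile normalization (Tjp1) and 0 to 2 with a library left out. The 444 and 161 came without siCNN3 replicate 3, and the 16 and 4 without siNC replicate 3. Some of these fits hold fewer samples or more features by construction, and the cause of the changes was not tested.

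Signs changed for members near 0. With a library left out, the log2 fold change ranged from -0.0046 to 0.32 for Fhl3, from -0.11 to 0.039 for Csrp1 (0.0169 without siCNN3 replicate 1) and from -0.29 to 0.071 for Csrp2. The upstream start of Csrp1 (Csrp1-202) gave 0.31, although its mean FPKM was 6.86 in siNC and 6.53 in siCNN3, with siNC replicate 2 at 0.459, and the transcripts of the middle start of Pdlim5 gave 0.043, a grouping chosen after seeing the data. Fhl1, Fhl2, Pdlim1, Pdlim5 and Pdlim7 kept their sign in all 14 alternatives set out at the start.

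Whether equal replicate numbers mark paired samples could not be settled from these values. The deviations from the group means correlated across genes by -0.278, 0.314 and -0.0247 for replicates 1, 2 and 3, and siNC replicate 1 correlated best with siCNN3 replicate 3 (0.442). The deviations within a group are tied together by its mean, so these correlations cannot decide whether the samples were paired. The fit with the block, in which Fhl2 was not called (adjusted p = 0.108, limma), therefore stands beside the others.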
